A study of Mus musculus with 6 samples.

Results

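*Prkce* encodes protein kinase C epsilon (PKC epsilon), and its gene body held more DMRs that lost methylation between infancy and young adulthood than any other gene in lung endothelial cells (EC). A differentially methylated region (DMR) was placed in *Prkce* when its midpoint fell between the first and last base of the gene, chr17:86167785-86657919 of mm10 (plus strand, RefSeq transcript NM_011104). This rule selected 65 of the 18333 DMRs. The gene ranked first under this count, but 8th when DMRs needed at least 5 CpGs and 86th when DMRs were given to their nearest promoter. The gene was chosen for this count, so the count and the direction are given as a description and were not tested.

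PKC epsilon is a serine/threonine kinase of the PKC class that diacylglycerol activates without a need for calcium. Phospholipase C makes this diacylglycerol at the membrane after receptor stimulation, diacylglycerol kinases remove it, and scaffold proteins place the active kinase near its substrates. In blood vessels and heart, PKC epsilon is known for its part in growth factor signalling and in protection from ischemia. Methylation of CpGs inside introns is often low where regulatory elements are active and high elsewhere, so an intronic DMR marks a stretch whose state differs between ages, without naming the gene it acts on.

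The data came from T-WGBS, a bisulfite sequencing method in which a transposase fragments the genome and adds the adaptors, applied to sorted lung EC of C57BL/6N mice. The infant group comprised 3 samples from mice aged 8 to 10 days, and the young adult group 3 from mice aged 8 to 12 weeks. The mice were female according to the methods of the study and carried no stated genetic change or treatment. Cells were sorted as live CD31+ CD34+ cells negative for PTPRC, LYVE1, LY76 and PDPN, and a DMR list cannot check this identity against marker expression. Each DMR comes with 1 mean methylation level per age group, so no value per sample, SD or test over samples can be given. The authors selected DMRs by a test of this same difference on these samples, which means that each difference is that of a selected region. A changed mixture of lung EC types and a change within each cell cannot be told apart in such means.

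The sequences below are the DMRs on which the description turns, from the first to the last CpG on the plus strand of mm10, with every CpG in capitals. The first pair are neighbours in intron 2 with the largest losses of the gene, 54.6 and 51.7 percentage points. The next are the DMR beside the start of an antisense transcript and a pair at the start of a predicted antisense transcript. The last is the DMR with the lowest young adult level.
chr17:86446897-86447160: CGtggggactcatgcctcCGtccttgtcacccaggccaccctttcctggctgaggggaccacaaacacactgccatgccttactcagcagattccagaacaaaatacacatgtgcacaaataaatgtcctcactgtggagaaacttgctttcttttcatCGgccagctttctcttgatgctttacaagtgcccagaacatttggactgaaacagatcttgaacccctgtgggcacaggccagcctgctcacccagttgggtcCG
chr17:86447449-86447608: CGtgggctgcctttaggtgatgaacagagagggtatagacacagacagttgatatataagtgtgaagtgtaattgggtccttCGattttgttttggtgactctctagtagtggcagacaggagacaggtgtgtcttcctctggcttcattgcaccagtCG
chr17:86286697-86286982: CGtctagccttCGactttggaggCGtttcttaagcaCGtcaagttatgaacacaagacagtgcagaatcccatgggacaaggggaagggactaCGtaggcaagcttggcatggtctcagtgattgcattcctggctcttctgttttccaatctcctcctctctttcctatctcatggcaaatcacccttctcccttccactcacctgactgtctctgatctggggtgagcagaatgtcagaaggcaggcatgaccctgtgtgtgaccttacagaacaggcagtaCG
chr17:86243240-86243329: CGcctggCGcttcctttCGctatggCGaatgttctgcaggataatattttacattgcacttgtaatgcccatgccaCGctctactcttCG
chr17:86243427-86243463: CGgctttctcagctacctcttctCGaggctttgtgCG
chr17:86633495-86633655: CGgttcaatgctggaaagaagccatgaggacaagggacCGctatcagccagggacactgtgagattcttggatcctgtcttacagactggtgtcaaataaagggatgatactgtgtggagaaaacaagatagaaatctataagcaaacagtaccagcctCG

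All 65 *Prkce* DMRs lost methylation in young adult EC and 0 gained it. Across the whole list, 45.9% of the 18333 DMRs were losses, and among the 12175 DMRs inside a gene body 57.5% were. The *Prkce* DMRs made up 0.772% of all loss DMRs. Because the gene was picked for its losses, nothing is read from this contrast.

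In infant EC the mean methylation of the *Prkce* DMRs ranged from 13.2% to 94.2%, with a median of 62.7%. The young adult means ranged from 0.427% to 60.5%, with a median of 27.2%. The 2 ranges overlap, but within each DMR the young adult mean was the lower. The difference had a median of -31.8 percentage points and ran from -54.6 to -11.8. It was under 20 points in 5 DMRs, between 20 and 30 in 22, between 30 and 40 in 24 and at least 40 in 14.

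**Figure D1:**
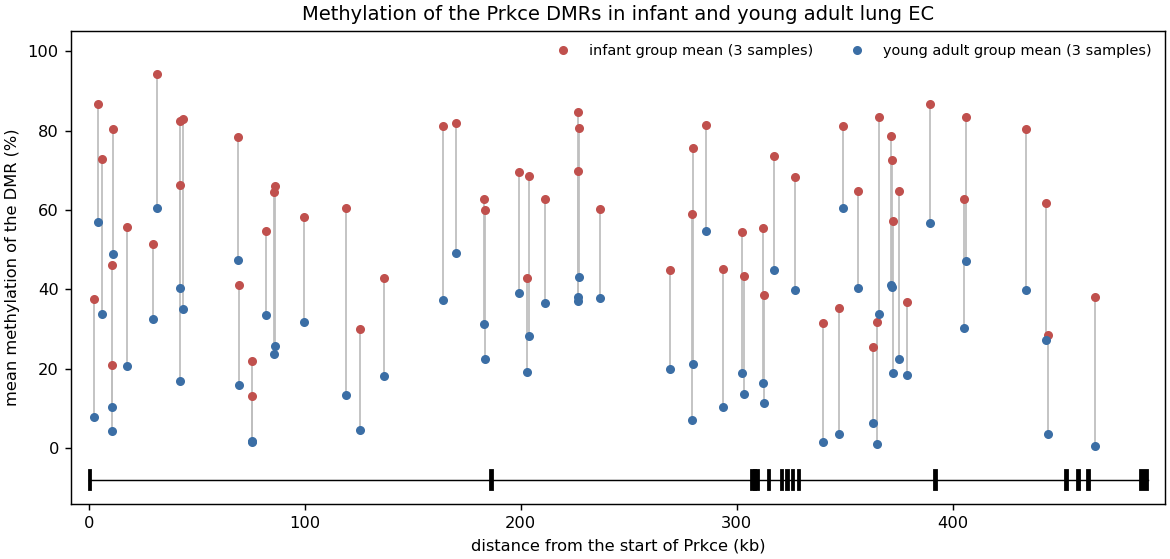
Mean methylation (%) of each of the 65 *Prkce* DMRs against its distance from the gene start (kb), with infant group means in red, young adult group means in blue and a grey line joining both means of a DMR; black boxes mark exons, widened to be visible. Infant means reach 94.2% and young adult means stay at or below 60.5%, and losses occur from near the start to 465.8 kb into the gene.

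Infant levels were far from uniform. The infant mean was under 40% in 13 DMRs, 40 to 60% in 15, 60 to 80% in 22 and at least 80% in 15. In young adult EC, 12 DMRs (18.5%) were below 10% methylation and 26 (40%) below 20%. The young adult mean was at or below 50% of the infant mean in 43 DMRs (66.2%), and the median DMR kept 43.6% of its infant level.

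DMRs that were highly methylated in infant EC were also the higher ones in young adult EC. Over the 65 DMRs the group means had a Pearson r of 0.886 and a Spearman rank correlation of 0.887. The infant mean and the size of the loss had an r of 0.536 and a rank correlation of 0.507. Neither the infant mean (r = -0.0178) nor the size of the loss (r = 0.0479) followed the distance from the gene start. These correlations are descriptions across DMRs that share the same 6 samples, a low infant level caps the possible loss, and the other 6245 intronic loss DMRs of the genome had a similar r between group means, 0.865.

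The largest loss was at chr17:86447449-86447608 in intron 2, a DMR of 3 CpGs that went from an infant mean of 75.7% to a young adult mean of 21.1%. Its neighbour chr17:86446897-86447160, with 4 CpGs and 288 bp away, went from 58.9% to 7.20%. Both fell by more than 50 points, and 1 reference CpG lies between them. They are the first pair of printed sequences.

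The other 3 of the 5 largest losses lay in introns 1 and 10. In intron 10, chr17:86533337-86533452 fell from 83.5% to 33.7%. Intron 1 held chr17:86210207-86210269, which fell from 66.3% to 17.01%, and chr17:86211546-86211577, which fell from 83.0% to 35.1%. The latter is short, and 81.3% of its bases are masked as repeats, and reads from repeats can be harder to place.

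The smallest differences were found in DMRs that were already low in infants or of intermediate level. The smallest, -11.8 points, was at chr17:86243427-86243463, which had the lowest infant mean of the gene (13.2%) and a young adult mean of 1.47%. At chr17:86178555-86178591 the mean went from 20.8% to 4.24%. The third, chr17:86546671-86546888 in intron 10, went from 36.8% to 18.3%. The first of these lies just above the 10 points that the authors required, so smaller shifts elsewhere in the gene would not be in the list.

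The widest DMR and the DMR with the most CpGs were not those with the extremes of level. The highest infant and young adult means belonged to the same DMR, chr17:86199343-86199563 in intron 1, at 94.2% and 60.5%. The lowest young adult mean, 0.427%, was at chr17:86633495-86633655 in intron 14, which had an infant mean of 38.0%; its 3 CpGs were thus nearly free of methylation in young adult EC. The DMR with the most CpGs, chr17:86254008-86254419 in intron 1, had 13 CpGs and went from 66.0% to 25.7%. The widest, chr17:86539011-86539499 in intron 10, spanned 489 bp and went from 78.7% to 41.0%.

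All 65 DMRs lay in introns, and none had its midpoint in any of the 15 exons, which together hold 219 of the 6675 CpGs of the gene. The DMRs covered 267 CpGs, 4% of those in the gene body. Introns 1, 2, 10 and 11, the 4 longest, make up 87.5% of the gene and held 60 of the DMRs. The 6 introns without a DMR (3, 4, 7, 8, 12 and 13) are short, from 1.04 to 5.29 kb, and hold 244 CpGs together.

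Intron 1 (184.6 kb) held 27 DMRs, which is 41.5% of them in 37.7% of the gene length. Intron 2 (120.7 kb) held 15. Introns 1 and 2 had 1.46 and 1.24 DMRs per 10 kb, close to the 1.33 of the gene as a whole. Intron 10 was denser, with 13 DMRs in 63.0 kb or 2.06 per 10 kb, while the similarly long intron 11 (60.6 kb) had 5 or 0.825 per 10 kb. Relative to reference CpGs the order was the same, with 1.49 DMRs per 100 CpGs in intron 10 and 0.683 in intron 11.

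The levels did not separate the introns. Median infant and young adult means were 60.4% and 25.7% in intron 1, 62.9% and 28.2% in intron 2, 64.7% and 22.3% in intron 10, and 62.7% and 30.2% in intron 11. Within each of these introns the infant means covered a span of over 40 points, wider than the few points between the medians. The short introns 5, 6 and 9 held 2, 1 and 1 DMRs, and intron 14 held 1 in 24.3 kb.

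**Figure D2:**
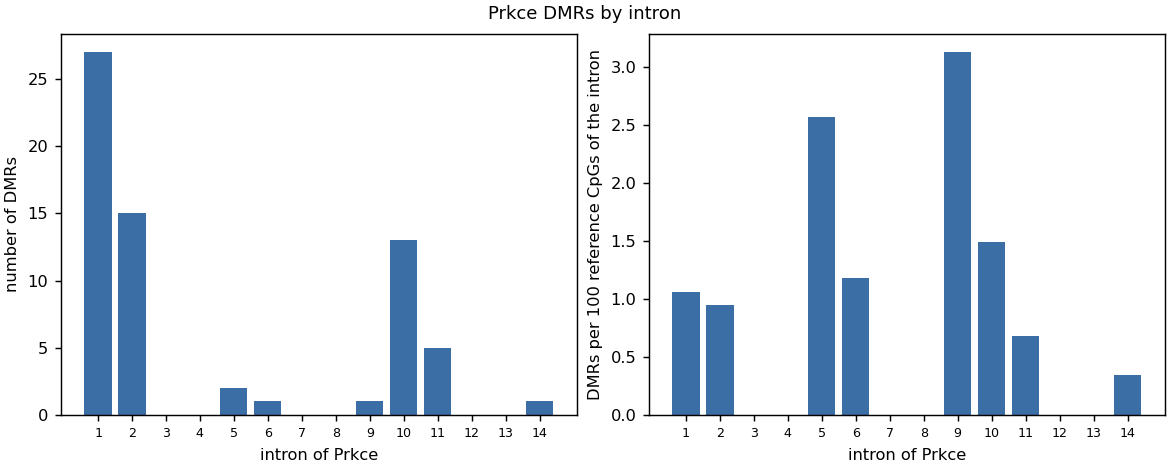
Number of *Prkce* DMRs (left) and DMRs per 100 reference CpGs (right) in each of the 14 introns of NM_011104. Intron 1 holds most DMRs (27), and the high bars per CpG of introns 5 and 9 rest on 2 DMRs and 1 DMR.

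Neighbouring DMRs were a median of 5.75 kb apart, with gaps from 59 bp to 32.3 kb. When DMRs at most 10 kb apart were joined, they formed 17 runs, of which 13 had at least 2 members and held 61 DMRs. The run with the most members spanned 39.0 kb of intron 10 (chr17:86507853-86546888) with 12 DMRs, whose infant and young adult medians were 61.0% and 20.6%. The next, with 11 DMRs over 58.0 kb (chr17:86436859-86494833), reached from intron 2 to intron 9 and had medians of 55.5% and 19.0%. Both runs lie in the 3' part of the gene, on either side of exon 10.

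In the 5' part, a run of 7 DMRs spanned the first 15.4 kb after the first DMR, with median means of 55.6% and 20.7%. Another run of 7 spanned 17.8 kb (chr17:86236625-86254419) and included both the smallest difference and the DMR with 13 CpGs. A compact run of 3 DMRs in 1.76 kb (chr17:86209820-86211577) had the largest median difference of any run with 3 or more members, -47.9 points, from 82.3% to 35.1%. The run of 3 thus had higher medians in both age groups than the first run of 7.

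The widest stretch without a DMR was the 32.3 kb between chr17:86404595 and chr17:86436858 in intron 2, which holds 473 reference CpGs. Stretches of 27.9, 27.0, 25.05 and 21.5 kb followed. CpGs are present in all of them, but the list does not say how many passed the coverage minimum, so lack of a difference and lack of coverage cannot be told apart there.

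Close neighbours did not always share a level. In the 12 pairs at most 500 bp apart, the infant means differed by a median of 15.2 points and by up to 59.6, and the young adult means by a median of 6.05 and up to 44.7. A median of 1.5 CpGs lay between the members of such a pair. In the 18 pairs over 500 bp and up to 5 kb apart, the median differences were larger, 26.7 points in infant and 21.5 in young adult means. In the 34 pairs over 5 kb apart, the median differences were 12.4 and 13.1 points.

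No DMR was listed at the start of *Prkce*, and lack of a difference and lack of coverage cannot be told apart there. The nearest DMRs on either side left a stretch of 4.59 kb with 267 CpGs, and the 1 kb on either side of the start held 191 CpGs, 9.55 per 100 bp against 1.36 in the gene body as a whole. The first DMR inside the gene, chr17:86170288-86170499, had its midpoint 2.61 kb after the start and went from 37.5% to 7.72%. The last before it, chr17:86165614-86165695, lay 2.13 kb upstream within the lncRNA gene Gm5817 and went from 39.0% to 10.4%. These DMRs, which flank the CpG-dense start, had similar means in both age groups.

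Other transcripts begin inside the gene, and their DMRs were looked up after the values were known. The antisense lncRNA 2010106C02Rik (NR_045435, minus strand, chr17:86285167-86287178) lies in intron 1 of *Prkce*. The DMR chr17:86286697-86286982, the third printed sequence, begins 196 bp downstream of its start and fell from 60.4% to 13.3%. Its midpoint was 339 bp from that start, and its 6 CpGs lost 47.1 points.

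A predicted antisense transcript, Gm52296 (XR_003952295), starts at chr17:86243306 in intron 1. The DMR chr17:86243240-86243329 covers this start and went from 22.0% to 1.91%, with 6 CpGs. The DMR with the lowest infant mean lies 121 bp from the same start, so both DMRs at this start were low in methylation in infant EC as well. A predicted shorter *Prkce* transcript (XM_006523833) starts at chr17:86461918 in intron 2, and the nearest DMR, chr17:86461154-86461298, ends 620 bp upstream of it and went from 45.0% to 10.3%. Its 145 bp hold 4 CpGs:
chr17:86461154-86461298: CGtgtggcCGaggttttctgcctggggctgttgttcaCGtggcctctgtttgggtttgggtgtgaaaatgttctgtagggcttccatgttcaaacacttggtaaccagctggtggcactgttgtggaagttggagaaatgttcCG
Whether any of these transcripts was made in these cells was not analysed here. The other predicted starts were farther from a DMR, with midpoints 5321 bp (XM_030249576) and 2041 bp (Gm30284, XR_877087) away. A further predicted *Prkce* transcript (XM_017317328) starts at chr17:86167812, within exon 1, 2581 bp from the midpoint of the first DMR.

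In width and composition the *Prkce* DMRs were like other intronic loss DMRs. Their median width was 115 bp (18 to 489 bp) against 138 bp in the other 6245, and they had 4.11 CpGs on average against 4.20. Exactly 3 CpGs, the minimum, were present in 32 of the 65 (49.2%, against 52.1%), and at least 5 in 16 (24.6%, against 26.6%). The median GC content was 51.5% against 50%, and the median DMR of both sets had no repeat-masked base.

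CpG islands of at least 200 bp, computed from the sequence, overlapped 14 *Prkce* DMRs (21.5%) and 9.85% of the other intronic loss DMRs. The share was 21.7% (10 of 46) in the neighbouring gene *Epas1* and 13.8% over all DMRs. Some of the 14 are close neighbours and may overlap the same island. With stricter islands (at least 500 bp, a GC content of 55% and a ratio of observed to expected CpGs above 0.65, against 50% and 0.6) the count in *Prkce* was 0. No test of these shares was made.

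Levels were also near those of the other intronic loss DMRs, whose infant median was 62.1% and young adult median 25.6%, with a difference of -32.9 points. The share with an infant mean of at least 80% was 23.1% in *Prkce* and 15.7% in the others, and the share below 40% was 20% and 14.4%. Shares with a young adult mean of at most 50% of the infant mean were nearly equal, 66.2% and 65.8%. *Prkce* was chosen for the number of its DMRs, and the median loss per DMR was close to that of the other intronic loss DMRs.

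**Figure D3:**
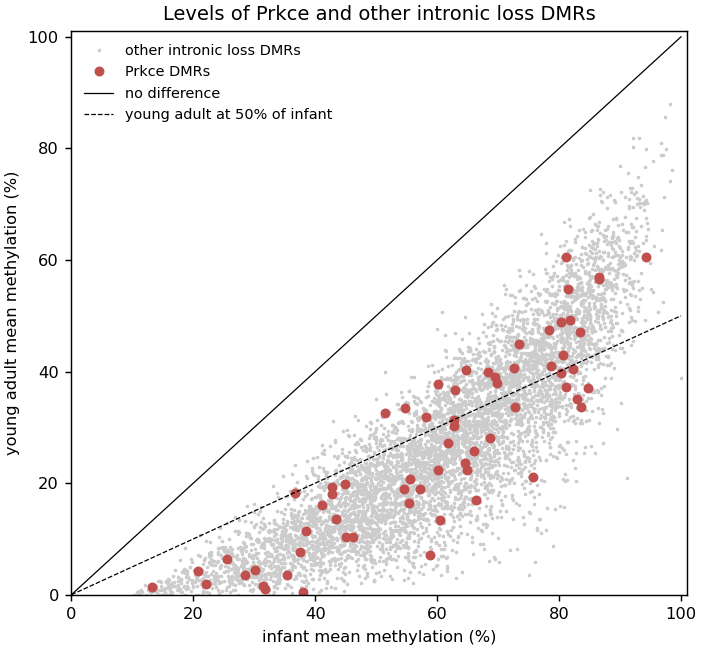
Young adult against infant mean methylation (%) of the 65 *Prkce* DMRs (red) and of the other 6245 intronic loss DMRs (grey); the solid line marks equal means and the dashed line a young adult mean at 50% of the infant mean. The *Prkce* DMRs lie within the grey cloud, and 43 of them are on or below the dashed line.

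Genes with at least 1 loss DMR made up 8.49% of the 26089 annotated genes, and 1.15% (301 genes) had more than 5. After *Prkce* with 65 came *Smad6* with 61 and *Arhgef3* with 59. *Smad6* encodes an inhibitor of BMP signalling and *Arhgef3* a guanine nucleotide exchange factor. By CpGs within loss and gain DMRs together, *Prkce* with 267 ranked 4th of these 301, behind *Smad6* (349), *Cyth3* (348) and *Epas1* (314).

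*Prkce* is a long gene, at 490.1 kb, and only 10 of the 301 genes with more than 5 loss DMRs are longer. Per 100 kb it had 13.3 loss DMRs, rank 137 of the 301, whose median was 11.9. *Smad6* had 88.4 and *Arhgef3* 22.7. Per 1000 CpGs the value was 9.74 in *Prkce*, rank 140, against a median of 8.84. Most long genes held no loss DMR: of 540 genes of at least 300 kb, 399 had none and 36 had more than 5. Over all 26089 genes, 2215 (8.49%) had at least 1 and 301 (1.15%) had more than 5. Both were thus more frequent among the long genes than among all genes. The rank of the gene thus depends on whether DMRs are counted or scaled to length.

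**Figure D4:**
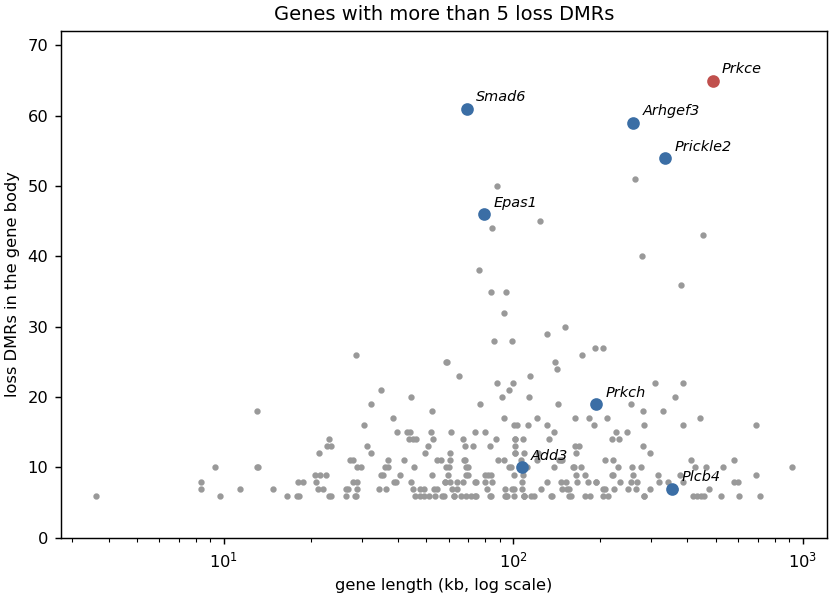
Number of loss DMRs against gene length (kb, log scale) for the 301 genes with more than 5 loss DMRs, each point a gene. *Prkce* (red) is highest with 65 at a length of 490.1 kb, and *Smad6* reaches 61 in 69.0 kb.

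Among the 49 genes with at least 20 DMRs, those whose median levels were nearest to *Prkce* (distance over both group medians) were *Shroom3*, *Pitpnc1* and *Mcc*, at 1.30, 1.98 and 2.02 points. *Pitpnc1* had 51 DMRs and *Mcc* 22, all losses, while *Shroom3* had 16 losses and 7 gains.

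Listed DMRs were nearly absent on the 5' side of the gene and were found again past the 3' end. As inside the gene, a stretch without a DMR may lack a difference or lack coverage. In the 500 kb before *Prkce* there was 1 DMR, the one in Gm5817, and *Srbd1* and *Six2* held none. From the last DMR of *Prkce* to its end, 24.3 kb with 282 CpGs held none, and the first DMR after the gene, chr17:86712330-86712657, lay 54.6 kb past the end and fell from 64.1% to 20.5%. The 500 kb after the gene held 53 DMRs, 50 of them losses and 3 gains.

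Most of these, 46, lay in *Epas1*, which encodes the hypoxia-inducible transcription factor HIF-2 alpha and starts 95.9 kb past the end of *Prkce*. All 46 were losses. Median levels in *Epas1* were 54.0% (infant) and 13.9% (young adult), with a difference of -38.9 points, so its young adult level was lower than in *Prkce* (27.2%). The share of DMRs with a young adult mean below 20% was 69.6% in *Epas1* and 40% in *Prkce*. In density *Epas1* also exceeded *Prkce*, with 57.8 against 13.3 loss DMRs per 100 kb. Of the other DMRs after the gene, *Socs5* held 1 loss and 1 gain, and 5 lay in no gene.

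**Figure D5:**
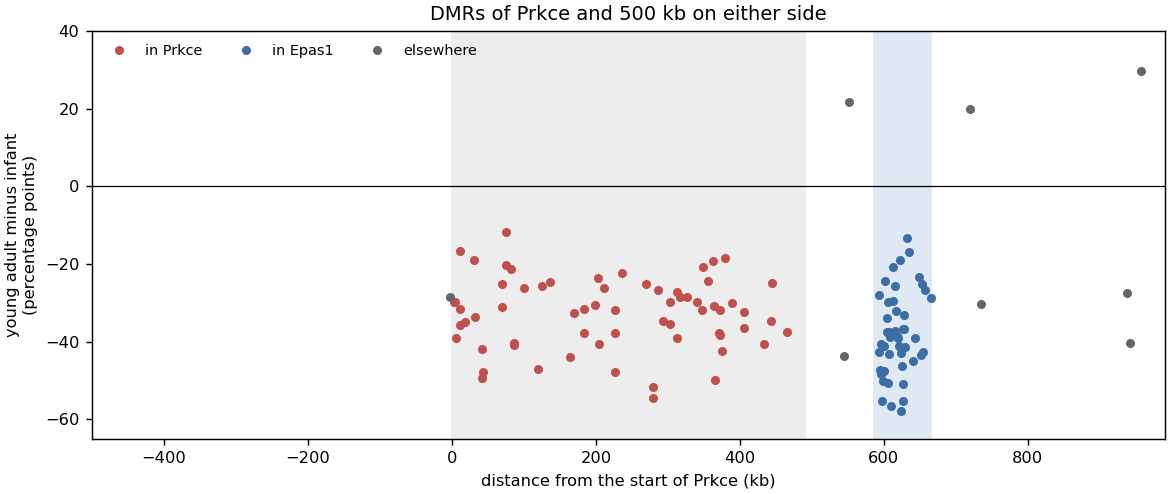
Young adult minus infant mean methylation (percentage points) of each DMR in *Prkce* (red, grey shading), *Epas1* (blue, blue shading) and elsewhere (dark grey) within 500 kb on either side, against distance from the start of *Prkce* (kb). All points in *Prkce* and *Epas1* lie below 0, and 1 DMR lies in the 500 kb before *Prkce*.

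The list gives each DMR its nearest promoter, which was often not that of *Prkce*. Of the 65, 37 were nearest to the promoter of 2010106C02Rik, 16 to that of *Epas1* and 12 to that of *Prkce*. Assigned in this way, *Prkce* had 13 loss DMRs, 1 of them upstream of the gene, and ranked 86 among genes. A DMR in a long gene can therefore be counted under another gene, and which gene any of them acts on was not analysed here.

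Other genes of PKC and diacylglycerol signalling were described as a list of 58 besides *Prkce*. At least 1 loss DMR was present in 16 of them (27.6%, against 8.49% of all genes), and 3 (5.17%, against 1.15%) had more than 5. Gain DMRs were present in 18 (31.0%, against 11.4% of all genes). The listed genes are long, with a median of 60.8 kb against 13.5 kb for all genes, and genes with a loss DMR had a median of 54.5 kb, so these shares are not comparable without regard to length.

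Among the other PKC isozymes reported, 1 had a loss DMR. This was *Prkch*, encoding PKC eta of the same class as PKC epsilon, with 19 loss DMRs, 0 gains and median means of 52.6% and 17.1%. The classical isozymes *Prkca* and *Prkcb* and the atypical *Prkci* had 1 gain DMR each. No DMR was listed in *Prkcd* and *Prkcq* of the class of *Prkce* or in the atypical *Prkcz*. With *Prkce* left out, since it was chosen for its losses, 1 of 8 isozymes (12.5%, against 8.49% of all genes) had a loss DMR. A gain was present in 3 of them (37.5%, against 11.4% of all genes). Gene length was not taken into account in these shares.

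Among the phospholipase C genes, 3 of 13 (23.1%, against 8.49% of all genes) had a loss DMR. A gain was present in 4 (30.8%, against 11.4% of all genes). *Plcb4* had 7 losses and 2 gains, and *Plcg1*, which couples receptor tyrosine kinases to diacylglycerol, had 5 losses. Of the 10 diacylglycerol kinase genes, 3 (30%) had a loss DMR, with 4 in *Dgkh*, and 3 (30%) had a gain. Another 10 genes encode other diacylglycerol receptors with a C1 domain, the fold that binds diacylglycerol. Of these, 2 (20%) had a loss and 5 (50%) had a gain. Protein kinase D enzymes act downstream of PKC. *Prkd3* and *Prkd2* had 5 and 4 losses, whereas *Prkd1* had 1 loss and 3 gains. Of the 7 listed kinases related to PKC, 4 (57.1%) had a loss DMR and 1 (14.3%) had a gain. *Add3*, which encodes gamma-adducin of the adducin family of PKC substrates, had 10, from a median of 53.9% to 15.4%. The 10 scaffold or substrate genes included 3 (30%) with a loss DMR and 2 (20%) with a gain, and *Nos3*, the endothelial nitric oxide synthase gene, had none. As for the isozymes, gene length was not taken into account in the shares of these subgroups.

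Short sequence motifs were searched on both strands of the 200 bp around the midpoint of each DMR. The ETS core GGAA was present in 90.8% of the *Prkce* windows, 90.6% of the other intronic loss windows and 90.3% of the intronic gain windows. At this window size it did not set any group apart. AGATAA, the letters that GATA factors bind, was in 16.9%, 13.7% and 9.77%. TGTTTA, a short form of the forkhead motif, was in 21.5%, 20% and 13.4%. CCACCC, bound by KLF factors, was in 20%, 16.8% and 14.7%.

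Some motifs were less frequent in *Prkce* windows. The longer ETS form GGAAGT was in 7.69% against 13.8% of the other intronic loss windows, and TGANTCA of AP-1 in 3.08% against 6.89%. TGTTTAC, the longer forkhead form, was in 1.54% against 6.05%, and TTCNNNGAA of STAT factors in 1.54% against 6.13%. CAGAC of SMAD factors was in 38.5% against 43.2%. Of the 15 motifs searched, 7 were more and 8 less frequent in *Prkce*, and 14 differed by at most 5 points. Within the DMRs themselves, from first to last CpG, 3 were more and 12 less frequent, and the *Prkce* DMRs were the narrower set (a median of 115 against 138 bp). There the direction turned for TGTTTA, at 10.8% in *Prkce* against 16.5%, and for CCACCC, at 13.8% against 14.4%. It also turned for the ETS core GGAA, at 69.2% against 74.0%. ACAATG of SOX factors turned from 10.8% against 9.77% in the windows to 3.08% against 8.68% in the DMRs. With 65 windows, 1 window is 1.54%, and a match of letters is not a bound site.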

How the data were processed

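DNA methylation was measured by T-WGBS in sorted lung EC of 3 infant and 3 young adult samples. The authors aligned reads with BWA (0.6.1) to mm10, removed duplicates and called DMRs with bsseq without smoothing, from CpGs with a coverage of 8 or more in no fewer than 2 samples per group. A DMR needed at least 3 consecutive CpGs with p under 0.05 each and a difference of at least 10%. In the deposited list, the methylation of a DMR is a fraction, averaged per age group, printed here as percent. The depth behind a DMR is unknown, and columns naming a nearest promoter were used in 1 alternative.

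All 18333 DMRs begin and end at a CpG of GRCm38.p6. DMRs were placed by midpoint in genes from RefSeq (26089 genes) with Python 3.11.15, pandas 2.3.3 and numpy 2.4.6, and the counting was tested on simulated data. Islands needed 200 bp, a GC content of 50% and a CpG ratio above 0.6. The members and lists were chosen with earlier results of these data known. Single DMRs named are the 5 largest and 3 smallest differences, extremes of width, CpGs and level, and the first and last inside and nearest outside. Genes named are those next in rank, the 3 nearest in level, neighbours with a DMR, PKC isozymes and the listed genes with most losses, and 1 listed gene is not reported here. *Prickle2*, *Cyth3*, *Nos3*, *Prkd1* and DMRs at internal starts were added after their values were seen. Alternatives were size, CpG number, merging, assignment, weighting, run gap, island size and motif window.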

Additional observations from a re-analysis of the deposited data

How the results depend on the processing

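No paired analysis was possible because the list holds only group means, and for the same reason the fits without 1 replicate were not run. With at least 5 CpGs per DMR, *Prkce* kept 16 loss DMRs and ranked 8 among genes, 9 listed genes including *Prkce* (17 in the main analysis) had a loss DMR, and the median difference was -35.7 points. Merging within 500 bp left 53 DMRs with a median difference of -30.8 points. Assignment by nearest promoter gave 13 loss DMRs and rank 86. Gaps of at most 2 kb gave 41 runs, and gaps of at most 50 kb gave 1. Islands stricter in length (500 bp), GC content (55%) and CpG ratio (0.65) together overlapped 0 DMRs, against 14. A difference of at least 20 points left 60 DMRs and rank 1, and any overlap with the gene body gave 65. Gain DMRs numbered 0 under each of the 5 filters and assignments tried. Filters by size or CpG number cannot add gains to a gene that had 0, and merging joined only DMRs of the same direction. Only the changes of assignment could have given gains, so nothing more is read from these counts. Intron 1 held 39.6% to 43.8% of the DMRs. The mean difference was -32.6 points, and -33.5 with each DMR weighted by its CpGs. Counts of DMRs rest on how the authors cut regions, and the unknown depth limits how finely the levels can be compared.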
